A study of Mus musculus with 7 samples.

Results

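The gamma crystallins were followed in the lens epithelium of SPARC-null (KO) mice and their wild-type (WT) littermates. The family was taken as 8 genes, Cryga, Crygb, Crygc, Crygd, Cryge, Crygf, Crygs and Crygn. Every probe set whose only gene symbol was one of them was used. These were 6 of the 45037 probe sets tested (6 of 18193 genes with such a probe set), 1 each for Cryga, Crygb, Crygd, Crygf, Crygs and Crygn. A seventh probe set was paired with Crygc and Crygb together and is given as shared, so Crygc was measured only jointly with Crygb. One more was paired with Cryga and its chromosome neighbour D630023F18Rik and is kept apart from the counts. No probe set was paired with Cryge, which is therefore not analysed here. Epithelial cells were cut by laser capture from stained cryosections, and RNA from a single lens, after 2 rounds of amplification, went onto each Affymetrix mouse array. The KO group held 4 lenses of 3 SPARC-null animals (both eyes of animal 1 as lenses 1L and 1R, and the left eyes of animals 4 and 7 as 4L and 7L). The WT group held 3 lenses of 3 wild-type animals (left eyes of animals 2, 5 and 6, as 2L, 5L and 6L). All 6 animals were 28 days old, on a C57Bl/6 background and from 1 litter. Among the 6 animals only KO animal 7 was a male per its label. The labels used here give neither the deleted part of Sparc nor any other allele. The animal was the unit of replication, with 1L and 1R averaged, so that n = 3 in each group.

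Crystallins are the soluble proteins that fill lens cells and give the lens its refractive power. The gamma crystallins are small monomers made of Greek key folds, and in rodents they are made mainly as epithelial cells at the equator turn into fibre cells, most of all in the dense lens core. Crygs encodes gamma S crystallin, which goes on being made after birth, and Crygn encodes gamma N crystallin, a member with features of both the beta and the gamma families. Mutations of these genes cause cataract in mice. SPARC, the missing protein, is secreted by the epithelium and binds the collagen IV of the lens capsule. SPARC-null mice develop cataract, which makes the level of the fibre cell crystallins in their epithelium a natural question.

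The start regions of the genes are shown first, because the members on chromosome 1 share stretches of letters there that Crygs and Crygn lack in whole or in part. In the RefSeq gene table of assembly GRCm38.p6, Cryge, Crygd, Crygc, Crygb and Cryga follow each other on chromosome 1, with 1 pseudogene between Crygb and Cryga. Crygf lies apart on chromosome 1, Crygn on chromosome 5 and Crygs on chromosome 16. All 8 genes were matched by symbol to RefSeq promoters of that build. The 80 bases before the annotated start are printed on the gene's own strand, with each match to TATATA and to TTTGTG, searched on both strands, in capitals. They come from chr1:65103364-65103443 (Cryga), chr1:65082291-65082370 (Crygb), chr1:65073533-65073612 (Crygc), chr1:65063441-65063520 (Crygd), chr1:65051164-65051243 (Cryge), chr16:22811411-22811490 (Crygs) and chr5:24757849-24757928 (Crygn), all on the minus strand, and from chr1:65926442-65926521 (Crygf) on the plus strand.
Cryga: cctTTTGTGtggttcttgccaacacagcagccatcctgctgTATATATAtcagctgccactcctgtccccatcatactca
Crygb: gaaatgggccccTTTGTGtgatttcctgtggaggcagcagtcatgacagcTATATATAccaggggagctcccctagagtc
Crygc: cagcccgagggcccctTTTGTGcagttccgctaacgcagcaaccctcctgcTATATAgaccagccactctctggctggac
Crygd: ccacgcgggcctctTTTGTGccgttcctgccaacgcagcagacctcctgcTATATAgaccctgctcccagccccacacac
Cryge: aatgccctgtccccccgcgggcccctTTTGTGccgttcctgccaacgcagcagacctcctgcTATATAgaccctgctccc
Crygf: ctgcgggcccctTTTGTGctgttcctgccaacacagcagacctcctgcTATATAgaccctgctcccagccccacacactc
Crygs: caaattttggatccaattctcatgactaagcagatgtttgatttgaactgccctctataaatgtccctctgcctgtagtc
Crygn: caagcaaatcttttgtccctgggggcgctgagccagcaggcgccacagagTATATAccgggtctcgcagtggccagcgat

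The letters TATATA, a form of the core of a TATA box, were found in 7 of the 8 stretches, all but that of Crygs. They were found in 1.88% of the same 80 bases of 32851 RefSeq promoters. The Crygs stretch holds the letters tataaa, another form, which was not searched for in Crygs or in those promoters. The missing match in Crygs is therefore no sign that it lacks a TATA box. TTTGTG, for which no factor is named here, was found in the 6 genes of chromosome 1 and in 4.6% of those promoters. Its first base lay 54 to 77 bases before the start. The 6 stretches resemble each other, so these are not 6 separate finds to weigh against that share. Maf proteins are known activators of crystallin genes, and a partial binding site of theirs, TGCTGA, was found in 0 of the 8 stretches, against 5.52% of all promoters. It was found within 250 bases of the start in 4 of the 8 genes, against 16.1% of all promoters. Alignment with free ends gave identities of 94.9% to 97.1% among Crygd, Cryge and Crygf, and of 63.0% to 81.9% among the other pairs of chromosome 1 genes. Crygd and Cryge shared 66 of 68 aligned bases, while Crygs and Crygn shared 28 of 54 with each other. A match of letters describes these stretches and is no evidence that a factor binds there.

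The deposited values were signals on a linear scale, each array having a trimmed mean of 500.003 or 500.004. The top of the scale differed between arrays. The highest signal of an array was 42153 in 1L, 53056 in 1R, 51883 in 4L and 43225 in 7L among KO lenses, and 28328 in 2L, 53054 in 5L and 52267 in 6L among WT lenses. The WT array 2L also had the lowest ratio of Gapdh signal at the 3' end over that at the 5' end, 3.75 against 9.06 to 15.9 in the other 6, where a low ratio marks more intact RNA. In the check of the labels, the brightest Sparc probe set had signals of 8.14 to 70.5 in KO lenses and 27371 to 49972 in WT lenses (limma adjusted p = 3.41e-06). Background was judged from 27 bacterial control probe sets, whose signals ran from 0.199 to 45.5. Of 14 measured lens epithelium genes, 13 lay above that highest control in all 7 lenses. The exception was Foxe3, a transcription factor of this epithelium, which lay at or under it in 4 lenses. All 14 measured lens fibre genes, among them the fibre membrane proteins Mip and Lim2, also lay above it in all 7 lenses of both groups. In such bulk samples fewer cells of a type and less RNA per cell cannot be told apart.

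The 5 probe sets of the chromosome 1 genes were among the brightest of every array in both genotypes. Crygb, for gamma B crystallin, had signals of 37009 (1L), 53056 (1R), 50325 (4L) and 43225 (7L) in KO lenses and of 28328 (2L), 51551 (5L) and 52267 (6L) in WT lenses. It was the brightest probe set of the array in KO lenses 1R and 7L and in WT lenses 2L and 6L, the second in 4L and 5L, and the twelfth in 1L. The ranges of the groups overlapped, the dimmest and the second brightest lens both being WT.

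Crygf, for gamma F crystallin, gave 38600, 48411, 44832 and 37261 in KO lenses 1L, 1R, 4L and 7L, and 23497, 45794 and 46663 in WT lenses 2L, 5L and 6L. Its probe set carries the Affymetrix suffix for probes that may also match related transcripts, so a part of its signal from Cryge or Crygd was not tested. Crygd, for gamma D crystallin, gave 36901, 44180, 38569 and 33994 in the same KO lenses, and 22774, 39037 and 43519 in the WT lenses. For both genes 1R was the brightest lens and 2L the dimmest, and the groups overlapped.

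The shared probe set of Crygc and Crygb gave 39104, 45427, 41593 and 35638 in KO lenses 1L, 1R, 4L and 7L, and 21474, 43666 and 43714 in WT lenses 2L, 5L and 6L. Cryga, for gamma A crystallin, was less bright, at 21422, 30918, 28374 and 23365 in KO lenses and 16214, 29127 and 28076 in WT lenses, and ranked 56 to 177 on its arrays. Both had the same dimmest lens, 2L, and the same brightest, 1R, as Crygd and Crygf. The probe set paired with both Cryga and D630023F18Rik was weak, at 88.3, 526, 151 and 430 in KO lenses and 296, 182 and 123 in WT lenses, and which of these 2 genes gave this signal was not tested.

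Crygs was at 35846, 41579, 36891 and 31879 in KO lenses 1L, 1R, 4L and 7L, and at 19845, 41010 and 39968 in WT lenses 2L, 5L and 6L. Its order over the lenses was close to that of the chromosome 1 genes, with 1R brightest and 2L dimmest. In 2L the signals of these 6 probe sets were 50.4% to 58.7% of the median of the other 6 lenses.

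Crygn behaved differently across lenses. It was at 20818 (1L), 12282 (1R), 15321 (4L) and 7264 (7L) in KO lenses, and at 12576 (2L), 13008 (5L) and 16565 (6L) in WT lenses. The brightest and the dimmest lens were both KO, so the WT values lay within the KO range. In 2L it was at 88.8% of the median of the other lenses, unlike the other 6 probe sets. In the deposited signals the 2 eyes of KO animal 1 lay in opposite order for Crygn and for the others. Crygn was at 0.59 in 1R as a ratio to 1L, while the other 6 probe sets had ratios of 1.16 to 1.44. The control probe set CreX, which is no mouse gene, shared the brightest and the dimmest lens of those 6. It was at 44108 in 1R, 32836 in 1L and 20810 in 2L. The part of the array scale in this order was not tested.

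**Figure D1:**
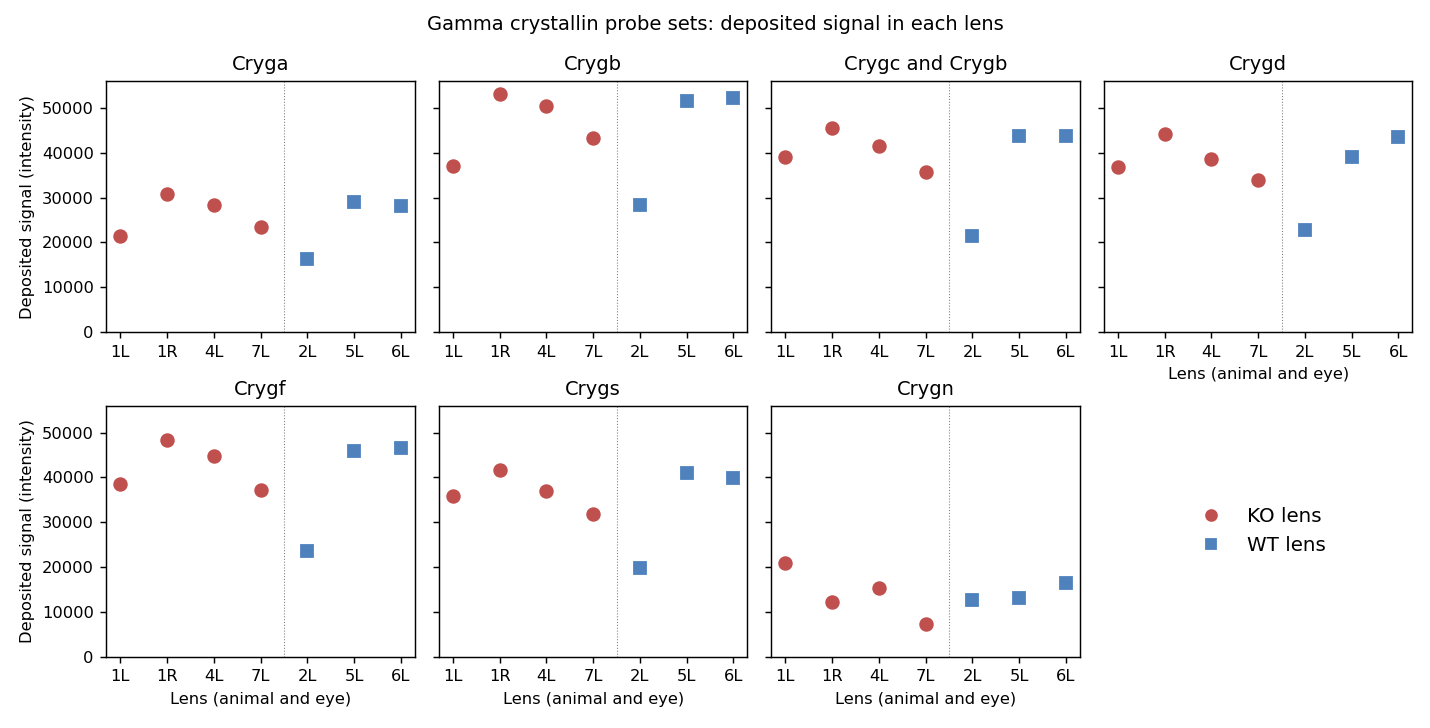
Deposited signal (intensity, linear axis from 0) of the 7 gamma crystallin probe sets in each lens, KO lenses as circles and WT lenses as squares. The WT lens 2L is the dimmest for 6 probe sets, and for Crygn the highest and lowest lens are both KO (20818 in 1L and 7264 in 7L).

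For the comparison of genotypes log2(signal + 16) was taken and the arrays were brought by quantile normalization to 1 scale, which gives all arrays the same distribution. This fixes the value of a probe set that ranks first. Crygb thus had 15.47 in all 4 lenses where it was brightest, and a difference in it could show only through its rank. On this scale the mean of Crygb was 15.41 ± 0.08 for the KO animals and 15.46 ± 0.02 for the WT animals (SD, n = 3). The log2 difference was -0.048 (SE 0.17), with a 95% interval of -0.43 to 0.34. Cryga averaged 14.63 ± 0.06 in KO and 14.55 ± 0.09 in WT, a log2 difference of 0.078 (interval -0.30 to 0.46).

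Crygd reached 15.16 ± 0.07 in KO against 15.11 ± 0.06 in WT (SD, n = 3), a log2 difference of 0.052 (SE 0.17). Crygf reached 15.30 ± 0.02 in KO against 15.23 ± 0.07 in WT, a log2 difference of 0.067 (SE 0.17). The shared probe set of Crygc and Crygb had the highest difference, 0.12 (interval -0.27 to 0.51), with 15.24 ± 0.04 in KO against 15.13 ± 0.11 in WT. Crygs reached 15.08 ± 0.03 in KO against 15.02 ± 0.15 in WT, a difference of 0.064 (interval -0.33 to 0.46).

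Crygn had the lowest difference and the widest spread among the probe sets of gamma crystallins alone. It ranked 195 to 918 on its arrays, while the others ranked 1 to 177, nearer the fixed top of this scale. The part of that top in their narrower spread was not tested. The Crygn means were 13.53 ± 0.53 in KO against 13.80 ± 0.24 in WT (SD, n = 3). The log2 difference was -0.27 (SE 0.27, interval -0.88 to 0.34, limma unadjusted p = 0.342). Without KO animal 7, the male, the Crygn difference was 0.032, so its direction rested on 1 lens. With arrays weighted by their quality it was -0.011, and without WT animal 2 it was -0.17. The probe set shared by Cryga and D630023F18Rik differed by 0.31 (SE 0.42), and by -0.075 without the same animal.

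No gamma crystallin passed the test. Of the 7 probe sets, 5 had a higher mean in KO, against 48.4% of all probe sets, and 2 a lower one. A limma adjusted p under 0.05 was reached by 0 of 7 and by 0.00666% of all probe sets (the adjusted p was 0.99988 for each of the 7). At an unadjusted p under 0.05 there were 0 of 7, against 4.06% of all probe sets. KO and WT lenses did not separate at any of the 7, against 5.33% of all. The median log2 difference was 0.064, beside -0.012 over all probe sets tested, and was 0.025 without WT animal 2. On the quantile normalized scale these intervals reach log2 changes of about 0.5 at most for the chromosome 1 genes and Crygs. For Crygn the range is wider. That scale ends at 15.47 on every array, close above the WT mean of Crygb, 15.46. A rise of the brightest members could thus not show in full, and the intervals do not bound such a rise. The SE of the chromosome 1 and Crygs probe sets was 0.17 to 0.18 on the quantile normalized scale. It was 0.31 to 0.35 with median centring and with the signals as deposited, so those scales leave room for larger changes. A p that misses the threshold does not show that the levels were equal.

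**Figure D2:**
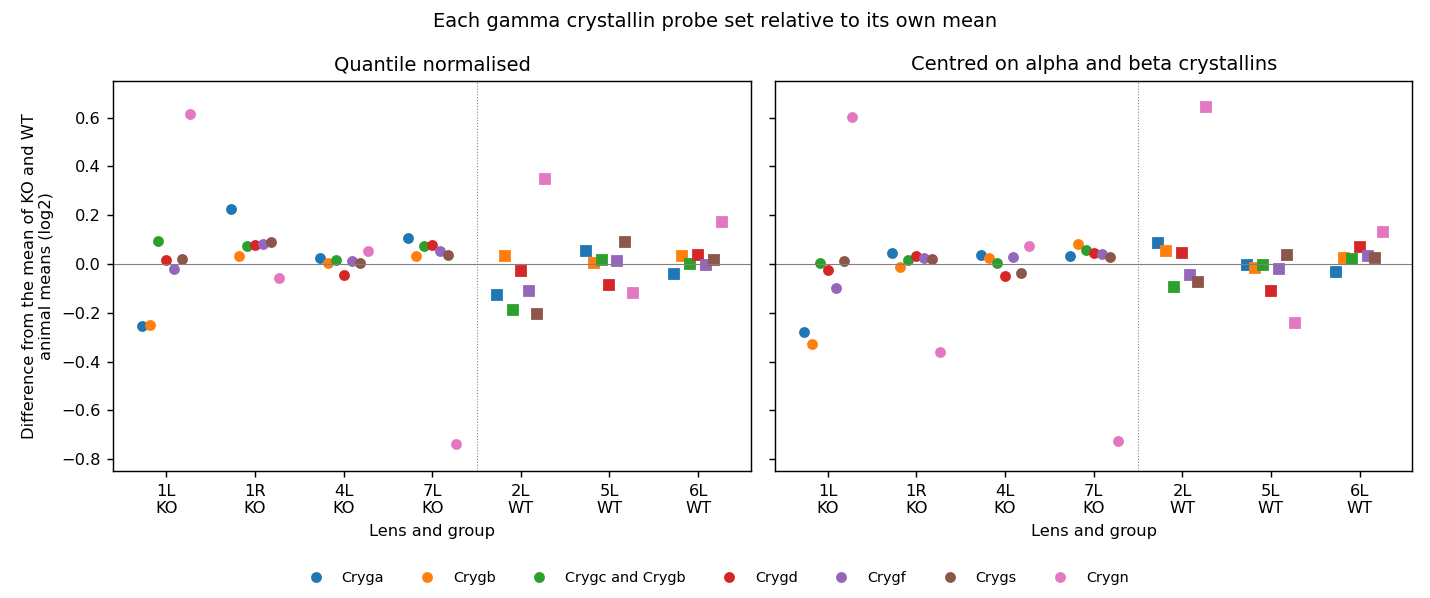
Each gamma crystallin probe set in each lens as its difference (log2) from the mean of its KO and WT animal means, KO lenses as circles and WT lenses as squares, on the quantile normalized scale (left) and with each array centred on its alpha and beta crystallins (right). Crygn is spread most, while Cryga and Crygb stand low in KO lens 1L on both scales.

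Because the members lay near the top of the arrays, the comparison was repeated under other scalings. With the signals as deposited, 6 of 7 means were higher in KO (median 0.15). With WT animal 2 also left out, 0 of 7 were higher and the median was -0.15, so that leaving out the dim array 2L turned the direction of 6 of the 7 on the deposited scale. Centred on the 8 alpha and beta crystallins of the same array, 3 were higher and 4 lower with a median of -0.0022. This last scaling moved the median of all probe sets to -0.13. The differences of the 7 probe sets stayed within -0.35 and 0.20 under the 5 scalings, and none had an unadjusted p under 0.05. The direction of the chromosome 1 genes and of Crygs was therefore not resolved.

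**Figure D3:**
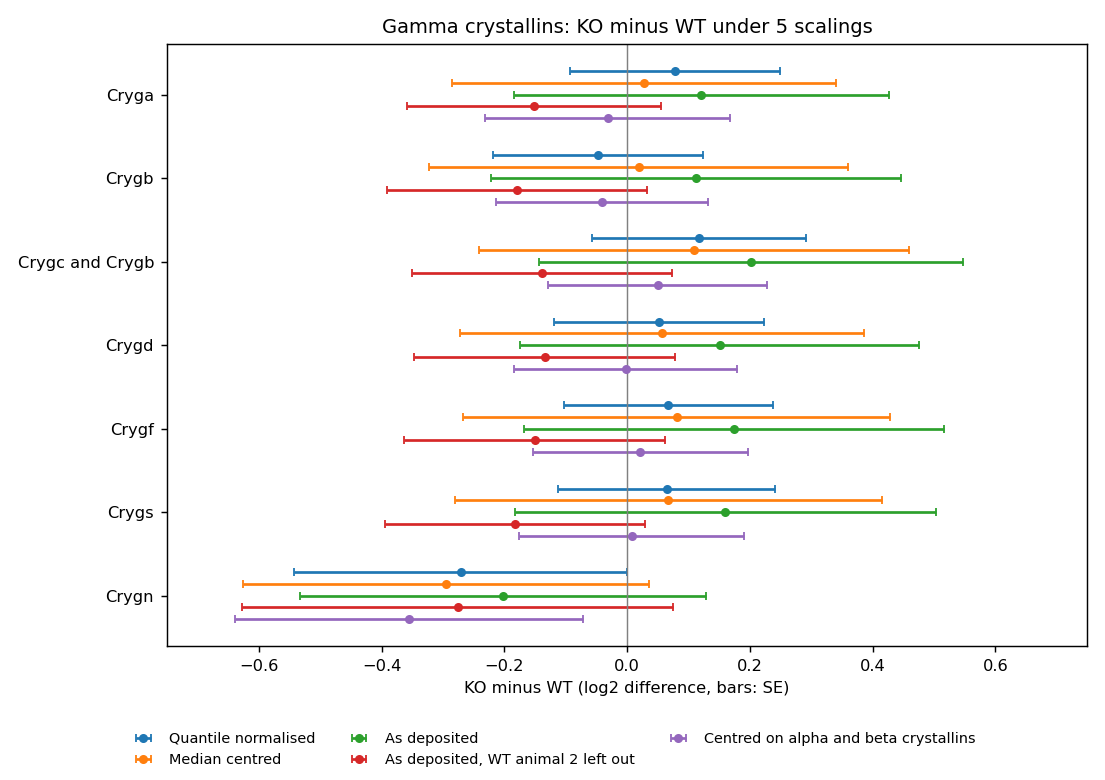
KO minus WT log2 difference (points, bars are the SE of limma) of the 7 gamma crystallin probe sets under 5 scalings. The bars cross 0 for every gene and scaling except Crygn, whose bar lies below 0 when arrays are centred on alpha and beta crystallins (-0.35, SE 0.28, unadjusted p = 0.224) and ends at about 0 when they are quantile normalized.

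The alpha and beta crystallins, the other structural families of lens cells, were read beside them. Of 8 genes, 7 had a higher and 1 a lower mean in KO, with 0 past the test and a median log2 difference of 0.075. Their differences ran from -0.046 to 0.15 (Cryba1), against -0.27 (Crygn) to 0.12 (the probe set shared by Crygc and Crygb) for the gamma probe sets, and the families were not tested against each other. Among 14 lens fibre genes 3 were higher and 11 lower in KO (median -0.17), with 0 past the test. Dnase2b, the nuclease that clears fibre cell DNA, differed by -0.83 (limma adjusted p = 0.918), Birc7 by -0.47 and Tdrd7 by -0.22. The 2 eyes of KO animal 1 differed by more, with a log2 difference of 1R minus 1L of 2.06 for Dnase2b, 2.63 for Birc7 and 1.00 for Tdrd7. For Dnase2b 1 KO lens lay above all WT lenses and 3 below, and for Birc7 1 above and 2 below. The mean of the fibre list lay at -0.51 in KO lens 1L and 0.38 in KO lens 1R on the log2 scale, relative to the mean of all animals. The other lenses lay at -0.15 (4L) and -0.075 (7L) in KO, and at 0.36 (2L), 0.0001 (5L) and -0.062 (6L) in WT. On the same scale the difference of 1R minus 1L was 0.48 for Cryga and 0.29 for Crygb, but 0.061 for Crygd, 0.10 for Crygf and 0.067 for Crygs. It was -0.018 for the probe set of Crygc and Crygb and -0.67 for Crygn, both thus higher in 1L. For the probe set of Cryga and D630023F18Rik it was 2.42. The part of fibre cell content in these values was not tested.

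Of 14 measured regulators of crystallin genes, 7 were higher and 7 lower in KO, with 0 past the test and a median of -0.021. Maf, an activator of crystallin genes, had 13.89 ± 0.06 in KO against 13.62 ± 0.71 in WT, and Prox1, needed for fibre elongation, had 9.95 ± 0.40 in KO against 9.93 ± 0.25 in WT (SD, n = 3). Sox1, which in mice is needed for gamma crystallin expression, had 11.02 ± 0.26 in KO against 11.34 ± 0.14 in WT (limma unadjusted p = 0.146). Gata3 differed by -0.58 (limma unadjusted p = 0.133). Foxe3 differed by -1.02 (limma unadjusted p = 0.0507) at a level near background. Of 14 lens epithelium genes 2 were higher and 12 lower in KO (median -0.19), with 0 past the test. At an unadjusted p under 0.05, reached by 4.06% of all probe sets, 1 of them was higher and 0 were lower. The higher gene was Abcb1a, at 0.90 (limma unadjusted p = 0.0246).

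Markers of neighbouring tissue were present in both groups, and no marker in any of the 6 lists passed the test. An unadjusted p under 0.05, which 4.06% of all probe sets reached, is given for each list. Of 12 genes of retinal neurons and glia 11 had a higher mean in KO (median 0.64), and 7 higher and 0 lower reached that p, with Nefl, a neurofilament protein, at 1.39. Their summed signals ran from 13137 to 21441 in KO lenses, against 7710 to 15047 in WT lenses, and overlapped. All 12 lay above the highest bacterial control in every lens. Of 14 photoreceptor genes, all above that control in every lens, 4 were higher and 10 lower in KO (median -0.12, summed signals 64313 to 99727 in KO and 54410 to 106508 in WT), and 0 higher and 2 lower reached that p, with Pde6g at -0.64. Of 10 genes of cornea and surface epithelium 1 was higher and 9 lower in KO (median -1.15, summed signals 7337 to 21420 in KO and 12715 to 24676 in WT), and 0 higher and 3 lower reached that p, with Upk1b at -1.37 (limma adjusted p = 0.918). In this list 1 marker lay at or under that control in all lenses. The macrophage and blood list had 10 of 11 genes higher in KO (median 0.21), 4 higher and 1 lower with that p and 3 at or under that control in all lenses. In that list 2 genes lay above the control in all lenses. Its summed signals were 1578 to 2373 in KO and 735 to 1341 in WT. These sums did not overlap, as was also so for 5.33% of all single probe sets, and no such share was taken for sums. Csf1r alone had signals of 868 to 1445 in KO and 361 to 886 in WT, which overlapped. Alas2 differed by 1.42 but lay at or under that control in 4 lenses. The pigmented epithelium list had 7 of 10 higher (median 0.64), all 10 above that control in every lens. With that p there were 2 higher, Gpnmb at 1.01 and Mlana at 0.92, and 1 lower, Rpe65 at -1.13. Its summed signals were 17593 to 48738 in KO and 11041 to 29427 in WT, which overlapped. The stroma and muscle list had 4 of 10 higher (median -0.18), 0 higher and 1 lower with that p, and Kera at -1.36. Its summed signals were 21808 to 39138 in KO and 31212 to 44722 in WT, and 9 of its genes lay above that control in every lens. Their part in the gamma crystallin values was not tested.

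**Figure D4:**
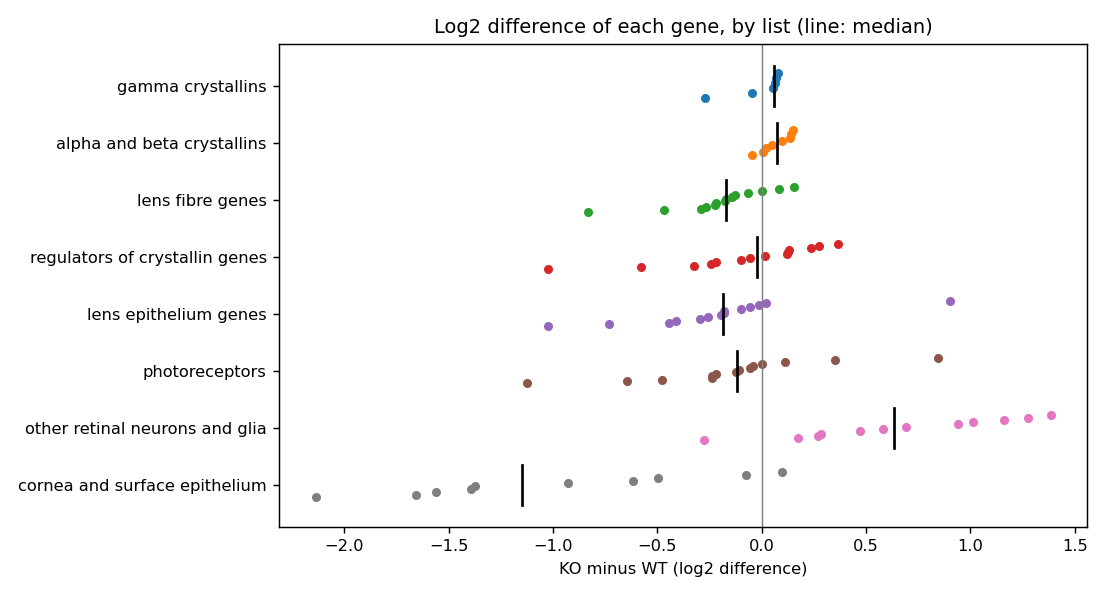
KO minus WT log2 difference of each gene (points, brightest probe set of 1 symbol) in 8 lists, with the median of each list as a line. The gamma crystallins lie from -0.27 to 0.078 and the alpha and beta crystallins from -0.046 to 0.15, while the list of cornea and surface epithelium has a median of -1.15.

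The genes whose values over the 7 lenses were most like those of the gamma crystallins were sought among 19431 probe sets above the median level. The mean of Cryga, Crygb, Crygd and Crygf, which spanned 0.23 on the log2 scale, was followed most closely by Septin10 (Pearson r = 0.984), Ccdc112 (0.983), Tigd2 (0.982), Strn (0.981) and Dmxl1 (0.981). For Crygs these were Cox5a (0.976), Snrnp200 (0.973), Smad4 (0.959), Ahsa2 (0.957) and Zmynd8 (0.954). For Crygn, which spanned 1.35, they were Tmem184b (0.985), Uqcr10 (0.980), Cdk9 (0.978), Mif (0.973) and Pfn1 (0.971). No crystallin of the alpha or beta family was among them. The lenses include both eyes of 1 animal and share the array scale, and these genes are the extremes of a large search, so the values describe these lenses only.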

How the data were processed

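The table as deposited holds linear intensity values, 1 signal per probe set and lens, for 7 arrays. Per the labels' protocols, cells were laser captured, and RNA was column extracted, amplified in 2 cycles and biotin labelled. Neither the summary software nor its background correction is named in those labels. Amplification from the 3' end favours probe sets near it.

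Of 45101 probe sets, 64 controls were left out and no filter on low values was used. Gene symbols came from the platform annotation (34945 probe sets with 1 symbol, 932 with several, 9160 with none). Arrays were quantile normalized after taking log2(signal + 16), and the pseudocount shrinks differences between low signals. The KO minus WT difference was fitted per animal in R 4.3.3 by limma 3.58.1 (lmFit, then eBayes with trend) and tested two-sided. P-values were adjusted by Benjamini-Hochberg over 45037 probe sets, with a threshold of 0.05. In total 1 probe set passed as higher and 2 as lower in KO, and both lower ones were of Sparc, the missing gene itself. The number of arrays limits the precision. The code was tested on simulated data. Alternatives were 1L or 1R alone, all 7 lenses taken as independent, the signals as deposited, median centring, a filter on low values, pseudocounts of 1 and 64, no trend, array weights, an adjusted p of 0.1 and leaving out each animal. Added after seeing the data were the deposited signals without WT animal 2, centring on alpha and beta crystallins, and a median without Crygn.

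The members, the 11 gene lists, the naming rule and the tests were chosen with earlier results of these data known. The rule named all members, Sparc, up to 3 genes of each list with the smallest p (in the text 1 to 3 of them), members that show a list's level (Mip, Lim2, Maf and Prox1), and the 5 genes most like each of 3 profiles over the lenses. Each listed gene was taken at its brightest probe set. Genes were matched to RefSeq of GRCm38.p6 for gene order and for promoters, as the files name no build.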

Additional observations from a re-analysis of the deposited data

Results flagged for a closer look

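Crygb stood apart in KO lens 1L on the quantile normalized scale only, of 3 scales. On that log2 scale it was at 15.18 there and at 15.44 to 15.47 in the other 3 KO lenses, and the gap to the nearest of them was 0.893 of the whole range of the KO lenses, above the 95% critical value of Dixon for 4 samples. Chance gives such a gap in about 5% of groups, and 1L and 1R are eyes of 1 animal. With the signals as deposited the gap was 0.431 of the range, and centred on alpha and beta crystallins it was 0.769, both below that critical value. The other 3 values on the normalized scale lie at the top 2 ranks of their arrays, where quantile normalization fixes them.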

How the results depend on the processing

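Under the 18 alternatives run, 0 of the 144 refits of the 8 probe sets passed the threshold or an unadjusted p of 0.05, and 14 turned direction. With lens 1L alone for KO animal 1, Cryga differed by -0.0034 and its probe set shared with D630023F18Rik by -0.10. Crygb differed by 0.019 with median centring and by 0.11 with the signals as deposited, where the gamma median was 0.15. With WT animal 2 also left out (chosen after seeing the data) the median was -0.15, with Cryga at -0.15, Crygd at -0.13, Crygf at -0.15, Crygs at -0.18 and the shared Crygc and Crygb probe set at -0.14. Centring on alpha and beta crystallins (also chosen later) gave Cryga -0.032, Crygd -0.0022 and a median of -0.0022. Leaving out 1 animal at a time gave a median of 0.025 (without WT animal 2) to 0.092, and gave -0.47 to 0.032 for Crygn, with the positive value without KO animal 7. It gave -0.023 to 0.13 for Crygs, with the negative value without WT animal 2. For the probe set of Cryga and D630023F18Rik it gave -0.075 to 0.61, the negative value again without KO animal 7. Array weights gave Crygn -0.011 and a median of 0.039. The cause was not tested. Over all probe sets 2 to 4 passed, the split being 2 higher and 2 lower when centred on alpha and beta crystallins against 1 and 2 otherwise or 0 and 2. The animal as a random block could not be fitted, since 1 pair of eyes gives no estimate of the correlation. Signals near the top of the arrays limit what differences can be seen.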
